A study of Mus musculus with 12 samples.

Results

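Of all 1 Mb windows of the mouse genome (mm9), the one with the most regions of RNA recovered with HP1γ in untreated cells was on chromosome 14, around the gene Loxl2. Its regions lay between 69.86 and 70.76 Mb, a window of 900 kb. The window was chosen from the untreated list itself, so the number of regions in it is a description and has no test. By position it held 68 of the 10013 untreated regions and 19 of the 2609 regions found after PMA. A region is a stretch of genome where RNA reads were called as enriched in the HP1γ immunoprecipitate (IP) over the chromatin input, and its fold is the authors' own ratio of IP over input, a mean over the peaks joined into it.

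All 12 libraries come from MEF-derived cells (mouse embryonic fibroblasts) labelled as recomplemented for HP1γ, the product of Cbx3, so every group shares a restored supply of the protein. The knock-out line that the design text names beside it is not analysed here. The libraries form 4 groups of 3 replicates: RNA of the crosslinked, solubilized chromatin (input) and RNA recovered from it with HP1γ (IP), each from untreated cells and from cells given the phorbol ester PMA at 100 nM, in DMSO, for 30 min. The labels do not say whether replicates were separate cultures, nor whether untreated cells received DMSO. No mock IP and no IP from HP1γ-deficient cells was analysed here, so recovery through HP1γ and unspecific recovery of chromatin RNA cannot be told apart. Each condition has 1 list, made by joining peaks called in single replicates; read depth is unknown, and no region has a replicate error. The PMA list names member peaks of replicates 2 and 3 only, the untreated list those of all 3 replicates, and no region of either list has fewer than 3 member peaks. This difference in how the lists were built touches every comparison between them, and values for an untreated list under the PMA list's rule are given further on.

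HP1γ reads chromatin through a chromodomain, which holds on to methylated lysine of histone H3. It is best known from silent heterochromatin, and it is also found along the bodies of active genes, where it has been linked to transcription and splicing. Chromatin RNA holds many unfinished transcripts, so enriched regions can lie anywhere along a transcribed stretch, introns included. The window is named after 3 genes. Loxl2 encodes a secreted copper-dependent amine oxidase that crosslinks collagen and elastin. Ppp3cc encodes a catalytic subunit of calcineurin, the calcium-dependent phosphatase, and Slc39a14 encodes the metal ion importer ZIP14. A RefSeq gene table of another build, GRCm38.p6, lists 12 protein-coding genes between Loxl2 and Slc39a14. In order these are R3hcc1, Chmp7 (repair of the nuclear envelope), Tnfrsf10b (a death receptor for TRAIL), Rhobtb2, Pebp4, Egr3 (an immediate-early transcription factor), Bin3, Ccar2 (an inhibitor of the deacetylase SIRT1), 9930012K11Rik, Pdlim2, Sorbs3 (the adhesion protein vinexin) and Ppp3cc. No mm9 annotation was used, so the order of genes is background only: no region below is assigned to a gene, exon, intron or UTR, and no value belongs to Loxl2, Ppp3cc or Slc39a14 alone.

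The untreated regions did not fill the window evenly. They formed 4 stretches separated by gaps of 53.2, 408.6 and 177.1 kb. The first, at the start of the window, held 12 regions, the second 44, the third 8 and the last 4. Thus 56 of the 68 regions (82.4%) lay in the first 226.3 kb (69860968 to 70087293), and the other 12 were scattered over 255.3 kb at the far end (70495874 to 70751196). Most neighbours stood close: over all 67 gaps between adjacent untreated regions, the 3 wide ones included, the median was 1.28 kb. Of these gaps, 28 were shorter than 1 kb and 10 were longer than 10 kb. The same 3 breaks appeared after PMA, at 55.5, 440.9 and 186.1 kb, and the 19 PMA regions divided into 4, 12, 2 and 1. PMA regions were farther apart, with a median gap of 9.47 kb and no gap under 1 kb.

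**Figure D1:**
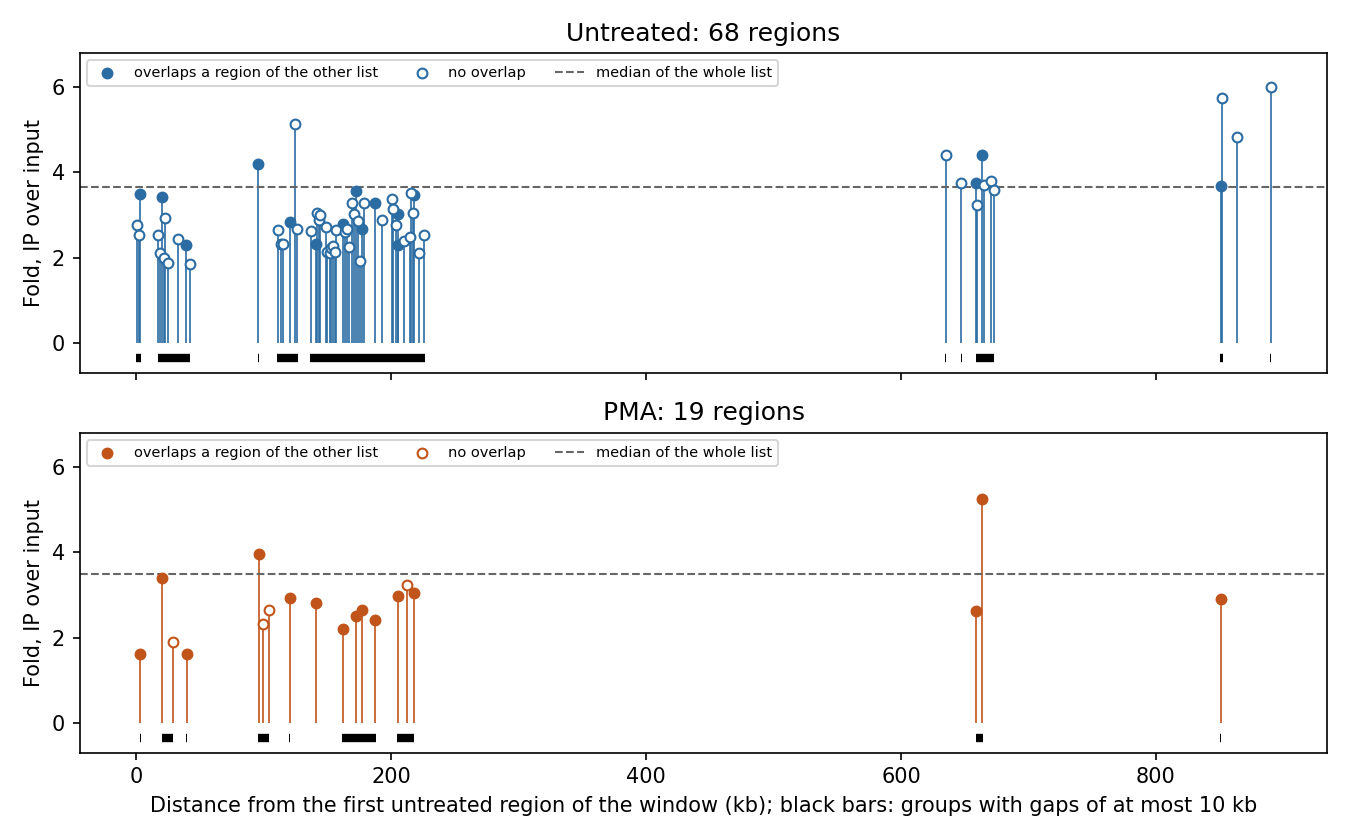
Fold enrichment of IP over input (y axis) for each region, by distance in kb from the first untreated region (x axis), with 68 untreated regions above and 19 PMA regions below; filled points overlap a region of the other list, the dashed line is the median of the whole list (3.65 and 3.50), and black bars are groups with gaps of at most 10 kb. Most regions of both lists sit in the first 226.3 kb at folds below the dashed line, and the untreated regions near the far end reach 6.01.

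Joining regions over gaps of at most 10 kb gave 11 groups in the untreated list. Of these, 5 held at least 3 regions and 61 regions in all, 1 was a pair, and 5 were single regions. A neighbour within 10 kb was found for 63 of 68 untreated regions, against 63.7% of the whole list, which the choice of a full window favours. Among PMA regions 14 of 19 had one, against 42.1% of the PMA list. The choice did not use PMA regions, but 15 of the 19 overlapped untreated regions, which it did use.

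From the left, the first group had 3 regions in 3.39 kb (69860968 to 69864360), which covered 77.6% of that span, with folds of 2.76, 2.52 and 3.50. The next had 9 regions in 25.5 kb (69877505 to 69903037) with a median fold of 2.29. It contained the lowest untreated fold of the window, 1.86 in a 348 bp region (69902690 to 69903037), which was also the 22nd lowest of the 10013. Beyond the gap of 53.2 kb stood a single region of 908 bp (69956202 to 69957109) at 4.20. A group of 6 regions followed in 16.3 kb (69971172 to 69987428). Its folds lay between 2.32 and 2.83 except for a 725 bp region (69985237 to 69985961) at 5.13, which had the highest −log10 q of the window, 19.8.

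The largest group began 10087 bp farther on, just past the 10 kb that would have joined it to the group before. It ran from 69997516 to 70087293 and put 37 regions into 89.8 kb, more than all other groups of the window together. Regions covered 28.4 kb of it, or 31.6% of its length. The median gap inside it was 616 bp, the shortest 61 bp and the longest 8041 bp, and 20 of its 36 gaps were under 1 kb. Its left part was the tightest: the fullest 50 kb of the window, from 69997516, held 23 regions, the last ending at 70039534. Widths in the group ranged from 410 to 2113 bp with a median of 678 bp. Folds were even and low, from 1.91 to 3.57 with a median of 2.72, so none of its 37 regions reached the untreated list's median of 3.65.

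**Figure D2:**
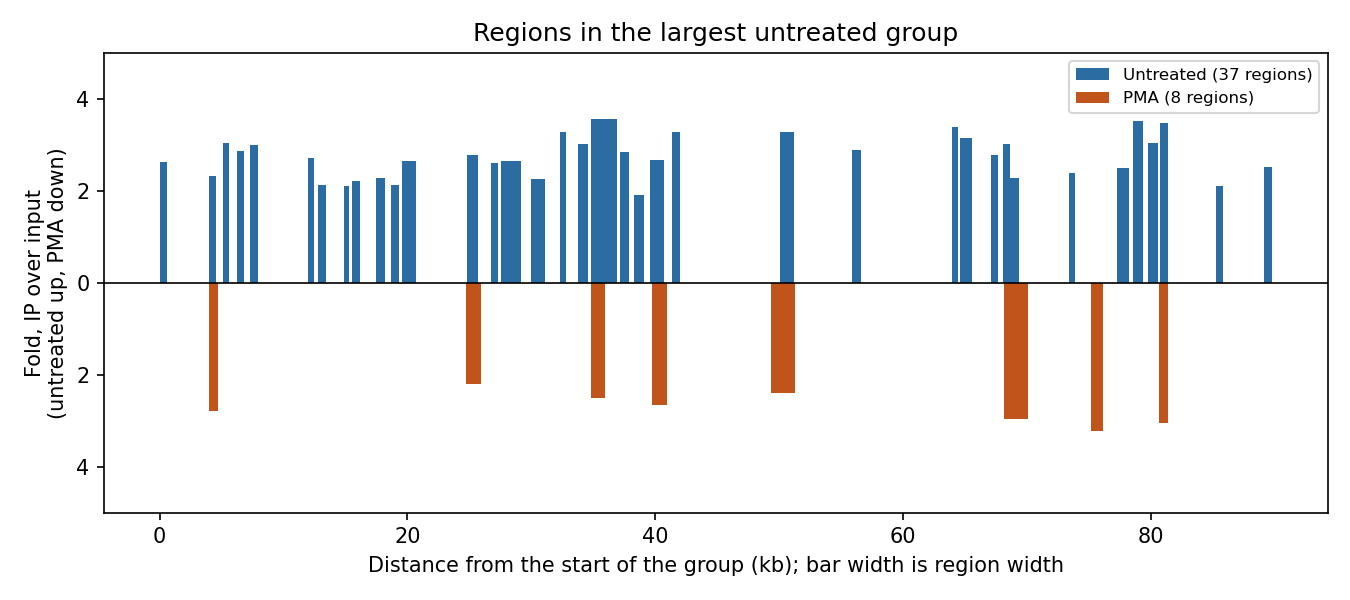
Fold enrichment of IP over input for regions in the largest untreated group (y axis; 37 untreated regions upwards, 8 PMA regions downwards) by distance in kb from the start of the group (x axis); bar width is region width. The untreated bars lie between 1.91 and 3.57, and 7 of the 8 PMA bars face an untreated bar.

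Past the gap of 408.6 kb, 2 single regions (70495874 to 70496268 and 70507897 to 70508519) had folds of 4.40 and 3.75. A group of 6 regions followed in 14.2 kb (70519962 to 70534120), with folds of 3.24 to 4.40 and a median of 3.72. The last stretch held a pair of adjoining regions, separated by 148 bp (70711181 to 70712574 and 70712723 to 70713546), at 3.68 and 5.74. It ended with 2 single regions, 461 bp wide (70724580 to 70725040) at 4.84 and 445 bp wide (70750752 to 70751196) at 6.01, the highest fold of the window.

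Fold thus differed along the window. In the first 226.3 kb the median untreated fold was 2.66 (range 1.86 to 5.13, 56 regions), and 54 of the 56 lay below the list's median. In the far stretches it was 3.77 (3.24 to 6.01, 12 regions), and 2 of 12 lay below. Regions of 1 stretch come from the same libraries and lie close together, so they are not independent, and this contrast is a description without a test. Over the whole window the median fold was 2.81, against 3.65 in the list, and 56 of 68 regions (82.4%) lay below the list's median. The 95% intervals of these medians, 2.64 to 3.04 and 3.62 to 3.68, treat regions as independent, which they are not, and serve as no test. The difference in medians was −0.84, and it was −0.41 when the largest group was left out, where the median of the other 31 regions was 3.24. The rest of chromosome 14, with 467 untreated regions, had a median of 3.46. The q values did not follow the folds in this: the median −log10 q was 4.39 in the window and 3.59 in the list. In 1 untreated region (69885860 to 69886252, fold 1.87) and 2 PMA regions the −log10 q was below that of q = 0.05.

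Untreated regions of the window were wider than those of the list, with a median of 649 bp against 528 bp (interquartile ranges 481 to 859.8 and 408 to 687 bp). They were also joined from more peaks. Exactly 1 peak per replicate made up 36 of 68 regions (52.9%, exact 95% interval 40.4 to 65.2), against 69.9% of the list. Width followed the number of member peaks: window regions of 3 members had a median of 549 bp, those of 4 had 624 bp, and those of 5 or more had 1117 bp, against 477, 698 and 1071 bp in the list. At equal member number the window's regions were thus the wider ones at 3 members and at 5 or more, and the narrower ones at 4. The widest was the 2113 bp region at 70032311 to 70034423, in the middle of the largest group, with 7 member peaks and a fold of 3.57. It was followed by 1558 bp (70025092 to 70026649, 3 members, fold 2.66) and 1487 bp (69971172 to 69972658, 6 members, fold 2.65). The region at 70711181 to 70712574 also had 7 members, and that at 70531321 to 70532272 had 6, 2 from each replicate, with a fold of 3.79.

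Replicate support was high, as in the whole list. Member peaks came from all 3 replicates in 65 of the 68 untreated regions (95.6%, exact 95% interval 87.6 to 99.1), against 91.9% of the whole list. The 3 exceptions were the region at 69885860, which lacked replicate 2, and those at 70029810 and 70724580, which lacked replicate 3. The last of these is among the 5 highest folds of the window. All 19 PMA regions had member peaks from both replicates of their list, as every PMA region does.

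After PMA the 19 regions fell into 10 groups, of which 3 had at least 3 regions, 2 were pairs and 5 were single. The largest held 4 regions in 26.5 kb (70022276 to 70048813), all inside the span of the untreated group of 37, with folds of 2.20 to 2.65. Another held 3 regions in 13.3 kb (70065650 to 70078905), also in that span, at 2.97, 3.23 and 3.05. The third such group, of 3 regions in 8.62 kb (69956223 to 69964846), lay around the single untreated region beyond the first gap, at 3.96, 2.31 and 2.64. In all, 8 PMA regions lay in the 89.8 kb of the largest untreated group.

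The median PMA fold in the window was 2.65, against 3.50 in the PMA list, and 17 of 19 regions lay below the list's median. The 95% intervals of these medians, 2.31 to 3.05 and 3.46 to 3.53, again treat regions as independent and serve as no test. The highest PMA fold was 5.24, in the 991 bp region at 70524097 to 70525087, followed by 3.96 (69956223 to 69957299), 3.39 (69880679 to 69881485), 3.23 (70072673 to 70073631) and 3.05 (70078150 to 70078905). At the other end, the regions at 69863794 to 69864491 and 69899817 to 69900758, both at 1.62, had the lowest and the second lowest fold of all 2609 PMA regions. Both lie in the first stretch, where PMA folds were 1.62, 3.39, 1.89 and 1.62. The median width of PMA regions was 942 bp here and 780 bp in the PMA list, against 649 and 528 bp untreated. The lists were built by different rules, and what this does to the contrast was not tested. With 3 member peaks required from 2 replicates, the untreated regions kept here had a median width of 950, 838 and 753 bp without replicates 1, 2 and 3. These are deposited widths, which still include peaks of the replicate left out. The widest PMA regions were 1969 bp (70046845 to 70048813), 1921 bp (70065650 to 70067570) and 1247 bp (70037220 to 70038466). Only the 1921 bp region, with 6 member peaks, and the 1125 bp region at 70032356, with 4, were joined from more than 3.

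Most PMA regions of the window lay on an untreated one. An overlap of at least 1 bp was found for 15 of 19 PMA regions (78.9%, exact 95% interval 54.4 to 93.9), against 54.8% of the PMA list. Counted from the untreated side, 16 of 68 regions (23.5%, 14.1 to 35.4) had a PMA region on them, against 15.5% of the untreated list. The intervals treat regions as independent, which they are not, and each includes its list's share. The window was chosen for its many untreated regions, so the share of PMA regions that lie on them is not free of that choice. Its effect on either share was not tested. By stretch, 3 of 12, 10 of 44, 2 of 8 and 1 of 4 untreated regions overlapped a PMA region, counts too small to compare the stretches. Shared untreated regions had a median fold of 3.35 and a median width of 857 bp, and those without a PMA region 2.69 and 618.5 bp. Of the 5 highest untreated folds, the fifth (70523895 to 70524975, 4.40) had a PMA partner. In all, 52 of the 68 untreated regions had none, among them those at 6.01, 5.74, 5.13 and 4.84.

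The overlaps made 16 pairs, since the 1921 bp PMA region spanned 2 neighbouring untreated regions. In 10 pairs the starts were within 100 bp of each other, and the PMA region was the wider one in 11 (68.8%, against 73.0% of the 1572 pairs in the whole lists). The untreated fold was the higher in 12 pairs and the PMA fold in 4. The median ratio of PMA over untreated fold was 0.911 (range 0.463 to 1.30), against 0.980 over all pairs of the lists, of which the PMA fold was the higher in 45.9%. There is no replicate error for a fold, so no single ratio could be tested.

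In 5 of the 16 pairs the folds were within 10% of each other, and in the other 11 they differed by more. At 69880658 to 69881488 the untreated fold was 3.42 and the PMA fold 3.39, and at 70037097 to 70038213 they were 2.67 and 2.65. The single region beyond the first gap had 4.20 untreated and 3.96 after PMA. Wider differences went both ways. At the first shared position (69863749 to 69864360 untreated) the fold was 3.50 untreated and 1.62 after PMA, the lowest ratio of the window. The 2113 bp region of the largest group had 3.57 against 2.51. At 70519962 to 70520325 the values were 3.74 and 2.62, while its neighbour at 70523895 to 70524975 had 4.40 untreated and 5.24 after PMA. At 70001502 to 70002083 the fold was 2.33 untreated and 2.80 after PMA.

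**Figure D3:**
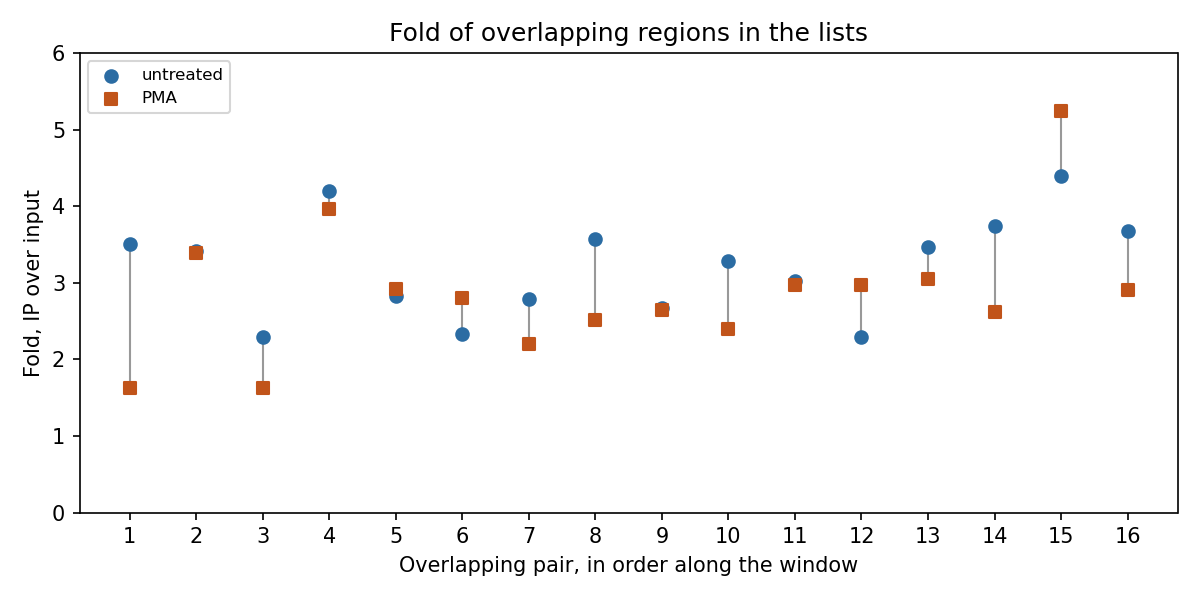
Fold enrichment of IP over input (y axis) in the untreated list (circles) and the PMA list (squares) for the 16 overlapping pairs in order along the window (x axis); a line joins each pair. The untreated value is the higher in 12 pairs, and the widest gap is at the first pair, 3.50 against 1.62.

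The 4 PMA regions without an untreated partner stood 1168 to 6325 bp from the nearest untreated region, and each had 3 member peaks. One was at 69889049 to 69889800, with a fold of 1.89. A pair of them, at 69960338 to 69960932 and 69964370 to 69964846 with folds of 2.31 and 2.64, filled part of the 14.1 kb that separated untreated regions there. The fourth, at 70072673 to 70073631, had a fold of 3.23 and a −log10 q of 5.31, and lay inside the largest untreated group. The first 3 had −log10 q values of 1.27, 1.21 and 1.87. Of the 4 positions, only the last therefore combined a fold above the window's PMA median with a −log10 q above the PMA list's median of 4.24.

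The names of member peaks also tell how many peaks each replicate had in the window, because peak numbers rose along the genome without a single fall in all 5 replicates. Between the outermost regions that the lists share, a span of 848.8 kb, untreated replicate 1 had 208 called peaks, replicate 2 had 115 and replicate 3 had 110. Over the same span PMA replicate 2 had 149 and replicate 3 had 212. The PMA values lie within and just above the untreated range, so the groups overlap, while the joined regions of that span numbered 63 and 19. The portion that was joined into a region was 40.4%, 64.3% and 67.3% in the untreated replicates, and 21.5% and 13.7% after PMA. Within the second stretch, from the single region at 69956202 to the last shared region of the largest group, the called peaks were 106, 72 and 68 untreated and 78 and 108 after PMA. There too the groups overlap, and the joined regions were 42 and 12.

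**Figure D4:**
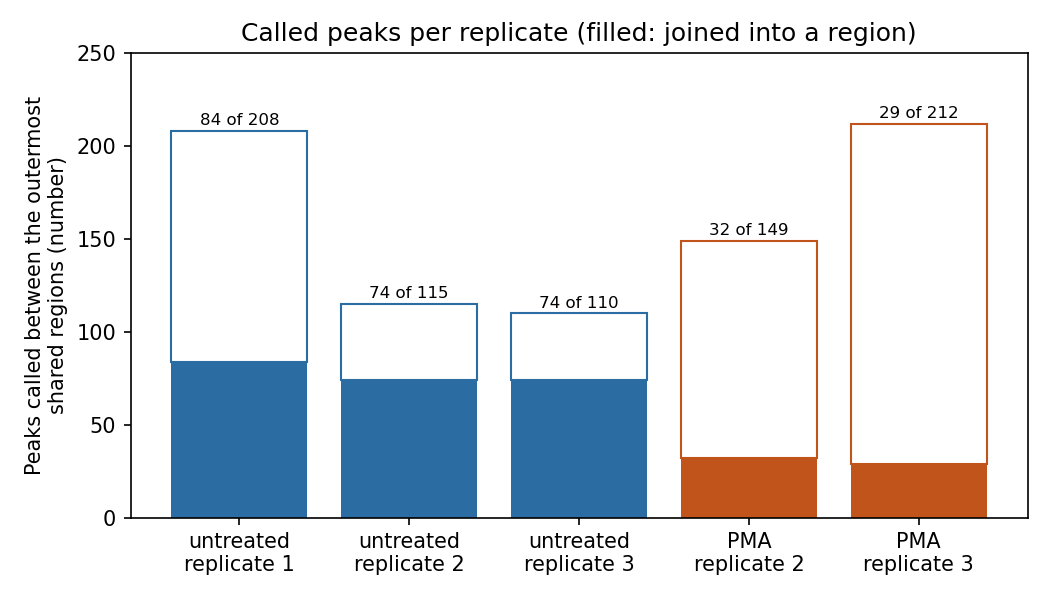
Number of peaks called between the outermost shared regions of the window (y axis) in each replicate (x axis), with the filled part joined into a region. The PMA replicates, at 149 and 212, overlap the untreated ones, at 110 to 208, and their filled parts, 32 and 29, are below the untreated 74 to 84.

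Set against all peaks of a replicate (the highest peak number, which is the least number called), the shared span of 848.8 kb held 0.238%, 0.282% and 0.329% of those of the untreated replicates, in numerical order. It held 0.301% of the peaks of PMA replicate 2 and 0.230% of those of replicate 3, so here too the groups overlap. The joined portion over the whole genome was 13.6%, 27.1% and 31.3% untreated and 8.85% and 4.34% after PMA, lower in every replicate than in the shared span. For the untreated list the window was chosen on the number of joined regions, so its higher portion is part of that choice.

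The gaps between stretches differed in what lay unjoined in them. In the gap of 53.2 kb the peak numbers of all 3 untreated replicates ran on without a break, so none of them had a peak there. The gap of 408.6 kb held 19 unjoined peaks of untreated replicate 1, 3 of replicate 2 and 5 of replicate 3. That of 177.1 kb held 22, 2 and 4 in the same order. After PMA the corresponding, wider gaps held 2, 22 and 23 unjoined peaks of replicate 2 and 3, 41 and 24 of replicate 3. Each of these PMA gaps also takes in untreated joined regions at its edges, so the counts are not of the same ground. The breaks of 408.6 and 177.1 kb thus hold no joined region but are not free of called peaks.

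As deposited, the window had 3.58 untreated regions for each PMA region, and the lists 3.84. By covered length the untreated regions of the window summed to 49.6 kb and the PMA regions to 18.6 kb, a ratio of 2.66, against 2.59 for the lists. When untreated regions had to keep 3 member peaks from 2 replicates, as PMA regions do, the window kept 16 regions when replicate 1 was dropped and 28 when replicate 2 or replicate 3 was. That is 0.842, 1.47 and 1.47 per PMA region, against 0.577, 0.762 and 0.907 in the whole lists under the same rule. The window kept 23.5%, 41.2% and 41.2% of its untreated regions, and the list 15.0%, 19.9% and 23.6%. The largest group then held 4, 15 and 7 regions in place of 37, and 36.8%, 52.6% and 42.1% of the PMA regions had an untreated partner in place of 78.9%. In the whole PMA list that share was 19.7%, 22.5% and 25% under this rule, in place of 54.8%. In an untreated list shortened to the length of the PMA list by −log10 q, the window had 19 regions, the same number as after PMA, and kept 27.9% of its regions against 26.1% of the list.

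The next 3 fullest 1 Mb windows of the untreated list lay on chromosome 17 (3080579 to 3532963 and 12315954 to 13143785, 61 regions each) and on chromosome 10 (84177560 to 85119814, 54 regions). The chromosome 14 window was the fullest but not the densest: its regions stood at 76.4 per Mb of the span from first to last, and the 3 others at 134.8, 73.7 and 57.3. The second chromosome 17 window also covered more bases, 63.5 kb against 49.6 kb. The median untreated folds of the 3 were 2.84, 2.51 and 3.29, all below the list's 3.65, and 82.0%, 80.3% and 70.4% of their regions lay below it, against 82.4% here. Their shares with a PMA partner were 19.7%, 29.5% and 22.2%, on both sides of the 23.5% here. Folds below the list's median and overlap shares of this size were thus seen in these windows too.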

How the data were processed

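RNAchIP-seq libraries (12, as 65 bp single-end reads, per the labels' protocols) were processed by the authors with tools that the submitters' processing notes name without roles or settings: cutadapt 1.11, STAR 2.5.0a, featureCounts 1.4.6-p3, MACS2 2.1.0 and deepTools, on mm9. The deposited files are 2 narrowPeak lists. Their fold, a ratio of IP over input, and their −log10 q values were taken as deposited. Both are means over the member peaks of a region: multiplied by the number of members, 100% of the values were whole at 5 decimals (tolerance 0.02 of the last decimal). The lists give no values of single peaks, no depth and no strand. Rows overlapping the window were taken, start positions are printed 1-based, groups were joined over gaps of at most 10 kb, stretches over 50 kb, and partners overlap by at least 1 bp. For shares, exact 95% intervals (Clopper-Pearson) were computed, and for medians order-statistic intervals. Both treat regions as independent. Named regions are, per list, the 5 highest folds, the 3 widest, the 3 with most members, the lowest fold, unpartnered PMA regions and groups of 3 or more; other named regions were chosen after their values were seen. The window, its measures and the alternatives were chosen with earlier results of these data known. No test was run, because each condition has 1 list. Grouping and overlap code was tested on simulated lists. Python 3.11.15, pandas 2.3.3, numpy 2.4.6, scipy 1.17.1 and matplotlib 3.10.9 were used.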

Additional observations from a re-analysis of the deposited data

How the results depend on the processing

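Across 16 results, 148 alternative values were computed: 106 stayed near the reported value, 41 moved and 1 turned. The 106 include settings that could not change a value. Requiring member peaks from both replicates removed no PMA region, because every PMA region has them. Widening the window by 100 kb on each side added no region. The count of 106 is therefore no measure of how stable the results are. An untreated replicate was left out in 2 ways, always by filtering the deposited regions, with their deposited bounds and mean fold. With 1 member peak still required from each of the others, no result moved (65 to 67 regions remained). This way could hardly move a result, because 65 of the 68 regions had member peaks from all 3 replicates. With 3 required from the others, the values without replicates 1, 2 and 3 were as follows. Untreated regions numbered 16, 28 and 28, or 0.842 (fewer than after PMA, so the direction turned), 1.47 and 1.47 per PMA region. The largest group held 4, 15 and 7 regions, and the median width was 950, 838 and 753 bp. A PMA partner was found for 43.8%, 35.7% and 28.6% of untreated regions, and an untreated partner for 36.8%, 52.6% and 42.1% of PMA regions. The untreated fold was higher in 6, 7 and 5 pairs, and the median fold differed from the list by −0.429, −0.789 and −0.827. At the length of the PMA list there were 19 untreated regions (1 per PMA region), 9 in the largest group, a median width of 818 bp, a median fold of 3.28 (−1.02 from the list), 31.6% of PMA regions with a partner and 5 pairs higher untreated. At a mean −log10 q of at least that of q = 0.001, 12 PMA regions remained and the untreated fold difference was −1.08. Merging within 1 kb gave 40 untreated regions, or 2.11 per PMA region. Joining over 5 kb left 23 in the largest group; 20 and 50 kb gave 5 and 4 groups in each list. Partners within 1 kb raised the untreated share to 41.2% and the pairs higher untreated to 19. Without the largest group, an alternative added after its size was seen, the median fold was 3.24 (−0.407). No paired analysis was possible because the lists hold joined regions and no values per library. Without read depths, a region missing from a list cannot be called absent.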

Other observations

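The window also stood alone on its left side. The nearest untreated region before it ended at 68551633, 1309.3 kb from the first region of the window, and had a fold of 2.99. On the right, the next region followed after 151.4 kb (70902572 to 70903119) at 3.39. Widening the window by 100 kb on each side therefore added no region of either list. These positions were looked up after the window's regions had been seen, and no annotation of the build was at hand to say what lies there.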
